A study of Drosophila melanogaster with 4 samples.

Results

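The myoblast fusion genes described here are 10 genes listed by symbol for their known role, and the list was drawn up with earlier results of these data known. They are kirre, rst, sns, hbs, rols, mbc, blow, WASp, SCAR and Vrp1. All 10 were among the 10626 genes of the gene table, and all 10 passed the filter on low values that 9228 genes passed. Of the 46187 exon bins in the exon table, 83 belong to these genes.

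mRNA-Seq was performed on indirect flight muscle (IFM), the fibrillar thoracic muscle that powers flight, from Drosophila melanogaster adults at 1 d of age grown at 27 °C. The mutant flies were bru1M3, a CRISPR allele in which a splice-trap cassette truncates all isoforms of bru1, and the control was the strain w1118. bru1 encodes a CELF-family RNA-binding protein that controls splicing in flight muscle. There were 2 libraries per genotype, each from the pooled IFM of many flies, so differences between single animals are not visible, and nothing shows that the pools came from separate cultures. The p-values therefore measure the spread between pools only.

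Insect muscle fibers form when founder cells fuse with fusion-competent myoblasts. Immunoglobulin-domain proteins on the cell surfaces recognise each other, and adaptors inside the cells then direct branched actin growth through the Arp2/3 complex, which pushes the membranes together until a pore opens. Flight muscle is built in this way in the pupa, mostly from myoblasts of the wing disc, so the 1 d adult libraries sample the tissue after that process has ended. Several of these proteins also act elsewhere: kirre, rst, sns and hbs in nephrocytes, the eye or the nervous system, and the actin regulators in most cells.

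The gene values are normalized counts, meaning reads per gene divided by 1 size factor per library. The libraries held 30384053 to 34105524 recovered reads. Mitochondrial-genome transcripts made up 41.2% and 29.0% of the reads in bru1M3 and 72.6% and 63.7% in w1118, so nuclear genes were covered by 19999967 and 21962285 reads in bru1M3, against 8326712 and 12395680 reads in w1118. bru1 itself had 10618 and 9976 normalized counts in bru1M3, against 1807 and 1386 in w1118, and exons ahead of the cassette enter that count, so it does not check the truncation. The flight muscle marker Act88F was among the highest transcripts of all libraries. Of 6 IFM markers, 0 passed the test, against 22.2% of all tested genes. At an unadjusted p under 0.05 the count was also 0, against 3387 of all 9228 tested genes. Photoreceptor markers summed to 502 and 916 normalized counts in bru1M3, against 4464 and 826 in w1118, so w1118 replicate 1 stood apart in these. Of the bru1M3 sums, norpA alone made up 469 and 508. ninaE had 2.05 and 97.7 in bru1M3, against 1256 and 80.0 in w1118, so bru1M3 replicate 1 lay far below the other libraries in that marker. Fewer cells of a type and less RNA per cell cannot be told apart in such pooled tissue.

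Only Vrp1 passed the test between genotypes. Of the 10 fusion genes, 1 was called higher in bru1M3 and 0 were called lower (limma on log2 of normalized count + 1, Benjamini-Hochberg adjusted p under 0.05 over all 9228 genes). For comparison, 22.2% of all tested genes were called, 12.8% as higher and 9.33% as lower in bru1M3. This split depended on the scaling: 1185 genes were called higher and 861 lower with the values as deposited, against 1095 and 1196 with quantile normalization and 945 and 1135 with equal totals of nuclear genes. At an unadjusted p under 0.05 the count of fusion genes was also 1 of 10, against 3387 of all 9228 tested genes. edgeR and DESeq2 on the recovered reads also called 1 higher and 0 lower. The log2 fold changes were positive for 5 and negative for 5 of the genes, with a median of 0.01, and the median over all tested genes was 0.00. The genotypes did not overlap in 5 of the 10, against 64.5% of all tested genes. With 2 libraries against 2, an exact permutation test of a single gene cannot go below p = 0.333, so every call rests on the fit across all genes.

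**Figure D1:**
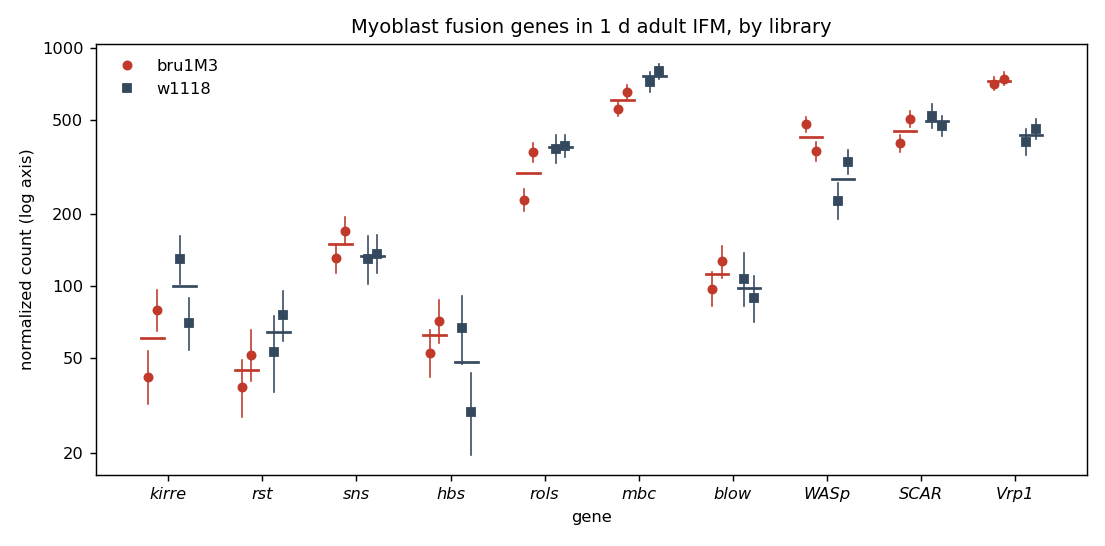
Normalized counts (y axis, log scale) of the 10 fusion genes (x axis) in each library, with circles for bru1M3 on the left of each pair and squares for w1118 on the right. Vertical lines are exact 95% Poisson intervals, which cover counting error only, and horizontal lines are the means of 2 libraries. Vrp1 lies at 708 and 742 in bru1M3, above 403 and 456 in w1118, and kirre, sns, hbs, blow and SCAR overlap between genotypes.

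The founder cell receptors had low transcript levels in both genotypes. kirre (also called duf) encodes the immunoglobulin-domain protein by which founder cells attract fusion-competent myoblasts. It had 41.6 and 79.2 normalized counts in bru1M3, against 129 and 70.1 in w1118. These values rest on 61 and 103 reads in bru1M3, against 76 and 64 reads in w1118. The genotypes overlapped, because the higher bru1M3 library lay above the lower w1118 library. The log2 fold change was −0.72 ± 0.45 (SE, n = 2 per genotype), with a 95% interval of −1.79 to 0.35 and a limma adjusted p of 0.295. The w1118 library with the highest kirre count, replicate 1, was also the library with the high photoreceptor markers, and the part of such cells in the kirre count was not tested. Without that library the log2 fold change was −0.28, and over the settings that left out 1 library in turn it lay between −1.18 and −0.26. The photoreceptor marker ninaE was at 2.05 in bru1M3 replicate 1, which had the lowest kirre count, and at 97.7 in bru1M3 replicate 2. The marker norpA differed little between them (469 and 508). Leaving out w1118 replicate 1 keeps bru1M3 replicate 1 in the comparison, so it does not test the part of such cells.

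rst (roughest) is the paralog of kirre, is able to replace it in founder cells and is also known for cell sorting in the developing eye. It had 37.5 and 51.5 normalized counts in bru1M3, against 52.8 and 75.6 in w1118, with no overlap, although the higher bru1M3 and the lower w1118 value were almost equal. Its log2 fold change was −0.51 ± 0.39 (SE), with an interval of −1.44 to 0.41 and a limma adjusted p of 0.387. It was −0.29 without bru1M3 replicate 1, −0.26 without w1118 replicate 2 and −0.77 without w1118 replicate 1. kirre and rst lie on chromosome X (BDGP6), kirre on the plus strand at positions 2740384 to 3134532 and rst on the minus strand within that span at 2950399 to 2973834. No annotated exon base is shared between them.

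The receptors of the fusion-competent myoblasts did not pass the test either, and their fold changes were positive. sns (sticks and stones) encodes the main partner of kirre and rst on fusion-competent cells, related to vertebrate nephrin. It had 131 and 171 normalized counts in bru1M3, against 129 and 137 in w1118. The lower bru1M3 library thus lay between the w1118 libraries. Its log2 fold change was 0.17 ± 0.27 (SE, interval −0.46 to 0.80, limma adjusted p = 0.693).

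hbs (hibris), the paralog of sns, had the widest relative spread of the 10 genes in w1118. It had 52.5 and 71.5 normalized counts in bru1M3, against 66.4 and 29.6 in w1118, and the last value stands on 27 reads. The groups overlapped, and the log2 fold change was 0.46 ± 0.48 (SE, interval −0.66 to 1.58, limma adjusted p = 0.533). Without w1118 replicate 2, which holds the low value, it turned to −0.11.

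Some of these receptors form a slit-diaphragm-like junction in nephrocytes, the insect's filtering cells. Of 3 nephrocyte markers, Cubn and Amnionless were called higher in bru1M3, against 12.8% of all tested genes. Cubn, the endocytic receptor cubilin, had 1205 and 1939 normalized counts in bru1M3, against 628 and 416 in w1118, and Klf15, a transcription factor of these cells, had 22.5 and 16.9 in bru1M3 and was at 0 in both w1118 libraries. Klf15 passed the filter on low values only through bru1M3, so its own test is not counted. The 3 markers together summed to 1726 and 2466 in bru1M3, against 914 and 564 in w1118. Neuronal markers moved in the other direction, with 3 of 6 called lower, against 9.33% of all tested genes. Their sums were 1686 and 2518 in bru1M3, against 4294 and 6490 in w1118. The part of these cell types in the receptor counts was not tested.

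The summed receptors of the 2 cell types were also set against each other within each library. The sum of kirre and rst, each per kilobase of exon, came to 0.458 and 0.561 of the sum of sns and hbs in bru1M3, against 0.923 and 0.994 in w1118. The ratio was lower in both bru1M3 libraries than in either w1118 library. It was formed with the values of the genes in view and therefore carries no test, and kirre, rst and hbs rest on 27 to 103 reads per library. The single ratios of kirre over rst and of sns over hbs overlapped between genotypes.

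The adaptor and exchange factor that act below the receptors had negative fold changes that missed the threshold. rols (rolling pebbles, also called antisocial) encodes the scaffold that gathers at the founder cell's contact site and binds kirre. It had 231 and 365 normalized counts in bru1M3, against 376 and 389 in w1118. Both bru1M3 values were below both w1118 values, but replicate 2 of bru1M3 came close to them. The log2 fold change was −0.40 ± 0.26 (SE, interval −1.01 to 0.22, limma adjusted p = 0.314). Leaving out single libraries moved it between −0.73 and −0.07.

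mbc (myoblast city) encodes the DOCK-type guanine nucleotide exchange factor that activates Rac together with Ced-12, the fly ELMO. It had 553 and 651 normalized counts in bru1M3, against 718 and 800 in w1118, with no overlap. Its log2 fold change was −0.34 ± 0.18 (SE, interval −0.77 to 0.10, limma adjusted p = 0.231). Ced-12 did not pass the test, with 207 and 194 normalized counts in bru1M3, against 172 and 175 in w1118. The ratio of mbc to Ced-12 per kilobase of exon was 0.927 and 1.16 in bru1M3, against 1.45 and 1.58 in w1118. This ratio was also formed with the values in view and has no test.

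Vrp1 (verprolin 1, also called solitary or WIP) rose in bru1M3. It encodes the protein that stabilises WASp and brings it to the fusion site in fusion-competent cells. It had 708 and 742 normalized counts in bru1M3, against 403 and 456 in w1118. The bru1M3 libraries differed little from each other and both lay well above the w1118 libraries. The averages were 725 ± 24.4 in bru1M3 and 430 ± 37.1 in w1118 (SD, n = 2 each). The log2 fold change was 0.76 ± 0.18 (SE), a 1.69-fold rise with a 95% interval of 1.26 to 2.27 (limma adjusted p = 0.0251). The counts behind these values were 1037 and 965 reads in bru1M3, against 237 and 416 reads in w1118. Every alternative kept the direction, with log2 fold changes of 0.60 to 0.84. The adjusted p stayed under 0.05 in 9 of 15 alternatives and reached 0.126 in the others: the call was lost whenever any 1 of the 4 libraries was left out (adjusted p = 0.0607 to 0.126), with quantile normalization (0.0554) and with equal totals of nuclear genes (0.0795).

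WASp, the activator of the Arp2/3 complex that Vrp1 binds, had 478 and 368 normalized counts in bru1M3, against 228 and 333 in w1118. All bru1M3 values were above all w1118 values, with a gap much smaller than in Vrp1. The log2 fold change was 0.60 ± 0.26 (SE), its interval of −0.01 to 1.21 reached 0, and it did not pass the test (limma adjusted p = 0.14). It was 0.33 without w1118 replicate 1 and 0.87 without w1118 replicate 2. The ratio of Vrp1 to WASp per kilobase overlapped between genotypes, with 0.883 and 1.20 in bru1M3, against 1.05 and 0.816 in w1118.

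blow (blown fuse) encodes an adaptor of fusion-competent cells that competes with WASp for Vrp1 and so keeps the actin structure turning over. It had 97.6 and 127 normalized counts in bru1M3, against 107 and 88.7 in w1118. The genotypes overlapped, and the log2 fold change was 0.19 ± 0.30 (SE, interval −0.52 to 0.89, limma adjusted p = 0.692). Leaving out single libraries moved it between 0.0006 and 0.38.

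SCAR, the WAVE-type activator of the Arp2/3 complex, acts below Rac on both sides of the fusion site. It had 397 and 501 normalized counts in bru1M3, against 517 and 471 in w1118. The groups overlapped, and the log2 fold change was −0.15 ± 0.20 (SE, interval −0.62 to 0.33, limma adjusted p = 0.649). The Vrp1 to SCAR ratio per kilobase was 1.06 and 0.880 in bru1M3, against 0.464 and 0.575 in w1118. The WASp to SCAR ratio was 1.20 and 0.732 in bru1M3, against 0.440 and 0.705 in w1118, so its lower bru1M3 value was close to its higher w1118 value. Both ratios were formed after the gene values were known, and neither has a test.

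The 10 genes covered a wide range of levels. In mean normalized counts per kilobase of exon, SCAR (144), Vrp1 (138) and WASp (135) were highest in bru1M3, and their libraries overlapped one another. mbc (80.6) lay below these with no overlap and above rols (39.4) and blow (39.4), which overlapped each other. The receptors sns (17.4), hbs (11.3), kirre (7.69) and rst (7.12) came last, with sns apart from the rest and hbs, kirre and rst overlapping their neighbours. In w1118 the order was SCAR (159), mbc (102), WASp (89.8), Vrp1 (81.9), rols (50.6), blow (34.4), sns (15.3), kirre (12.7), rst (10.3) and hbs (8.76). There mbc overlapped WASp, WASp overlapped Vrp1, and each receptor overlapped the next. The median of 8812 tested nuclear genes was 70.3 per kilobase in bru1M3 and 65.9 in w1118, so the 3 actin regulators stood above the middle of the transcriptome and the 4 receptors far below it in both genotypes.

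The genes that work with these 10 were taken from a list of 35 fusion partners, of which 34 were in the table and tested. This list too was drawn up with earlier results of these data known, so its shares are not an independent comparison. Of these partners, 11 (32.4%) were called higher and 1 (2.94%) lower in bru1M3, against 12.8% higher and 9.33% lower among all tested genes, with a median of 0.18 on the log2 scale. The genotypes did not overlap in 27 of the 34, against 64.5% of all tested genes. The number called higher was 5 without bru1M3 replicate 1, 4 without bru1M3 replicate 2, 8 without w1118 replicate 1 and 7 without w1118 replicate 2. The calls were spread unevenly over the complexes: 6 of 8 subunits of the Arp2/3 complex were called higher and 0 of 4 subunits of the WAVE complex. For WAVE the count was also 0 by edgeR and by DESeq2. At an unadjusted p under 0.05 it was 0 too, against 3387 of all 9228 tested genes.

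The Arp2/3 complex nucleates the branched actin filaments that WASp and SCAR call for, and is built from the actin-related proteins Arp2 and Arp3 and smaller subunits. Arp3 had 987 and 958 normalized counts in bru1M3, against 158 and 279 in w1118 (2.20 on the log2 scale, limma adjusted p = 0.00208). Arpc2 had 1462 and 1133 in bru1M3, against 284 and 307 in w1118, a log2 fold change of 2.12 (adjusted p = 5.39e-04). Arpc1 had 1157 and 1192 in bru1M3, against 300 and 360 in w1118, a log2 fold change of 1.83 (adjusted p = 7.06e-04). In all 3 of these subunits the lowest bru1M3 library was above the highest w1118 library by a wide margin.

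Arp2 rose as well, with a log2 fold change of 1.14, as did Arpc3A with 1.08 and Arpc5 with 1.07. The last 2 had limma adjusted p-values of 0.0375 and 0.035. Arpc4 (0.55, adjusted p = 0.249) and Arpc3B (0.16, adjusted p = 0.828), a second gene for the subunit of Arpc3A, did not pass the test. Summed over the 8 genes, the complex had 5029 and 4535 normalized counts in bru1M3, against 1356 and 1758 in w1118. All 8 fold changes were positive under each scaling tried, and without w1118 replicate 1 that of Arpc3B turned negative. The number of subunits called fell to 4 with equal totals of nuclear genes and was 2 without bru1M3 replicate 1, 3 without bru1M3 replicate 2, 4 without w1118 replicate 1 and 5 without w1118 replicate 2. Arpc1 and Arpc2 were called in each of these settings.

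The WAVE complex holds SCAR in check until Rac binds it. Its listed partners Cyfip (also called Sra-1), Hem, Abi and HSPC300 had log2 fold changes between −0.40 and 0.10 and a median of −0.32. Cyfip, the one with the highest counts, had 390 and 358 normalized counts in bru1M3, against 388 and 312 in w1118. The test of each gene does not compare one complex with another, and the difference between the Arp2/3 and WAVE subunits was not tested.

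In the Rac branch 3 of 8 genes were called higher, against 12.8% of all tested genes. Pak3, a kinase that is activated by Rac and Cdc42, had 1580 and 1614 normalized counts in bru1M3, against 509 and 501 in w1118 (1.66 on the log2 scale, limma adjusted p = 6.29e-04). Rac2, one of the Rac GTPases needed for fusion, had 953 and 1253 in bru1M3, against 650 and 495 in w1118 (log2 fold change 0.94, adjusted p = 0.0231). Cdc42, a GTPase that activates WASp, had 841 and 838 in bru1M3, against 558 and 521 in w1118 (log2 fold change 0.64, adjusted p = 0.0368). The call of Cdc42 was lost with quantile normalization, with equal nuclear totals and with any library left out, and that of Rac2 without either bru1M3 library or without w1118 replicate 2. Pak3 stayed called in every setting that left out a library.

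The remaining calls were 2 rises and 1 fall. siz (schizo, also called loner), an exchange factor for the Arf6 GTPase, had 1073 and 1280 normalized counts in bru1M3, against 592 and 518 in w1118 (log2 fold change 1.08, limma adjusted p = 0.00708). sktl (skittles), a phosphatidylinositol phosphate kinase, had 598 and 690 in bru1M3, against 356 and 257 in w1118 (log2 fold change 1.08, adjusted p = 0.0156). rost (rolling stone), a membrane protein first found through its fusion phenotype, was the gene that fell, with 250 and 283 in bru1M3, against 456 and 527 in w1118 (log2 fold change −0.88, adjusted p = 0.0219). The highest counts among the remaining partners were those of beta-Spec, a spectrin subunit, with 4139 and 5960 in bru1M3, against 3068 and 3334 in w1118 (log2 fold change 0.63, adjusted p = 0.0696). The call of siz was lost without bru1M3 replicate 2, that of sktl without either bru1M3 library or without w1118 replicate 2, and that of rost without any 1 of the 4 libraries.

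**Figure D2:**
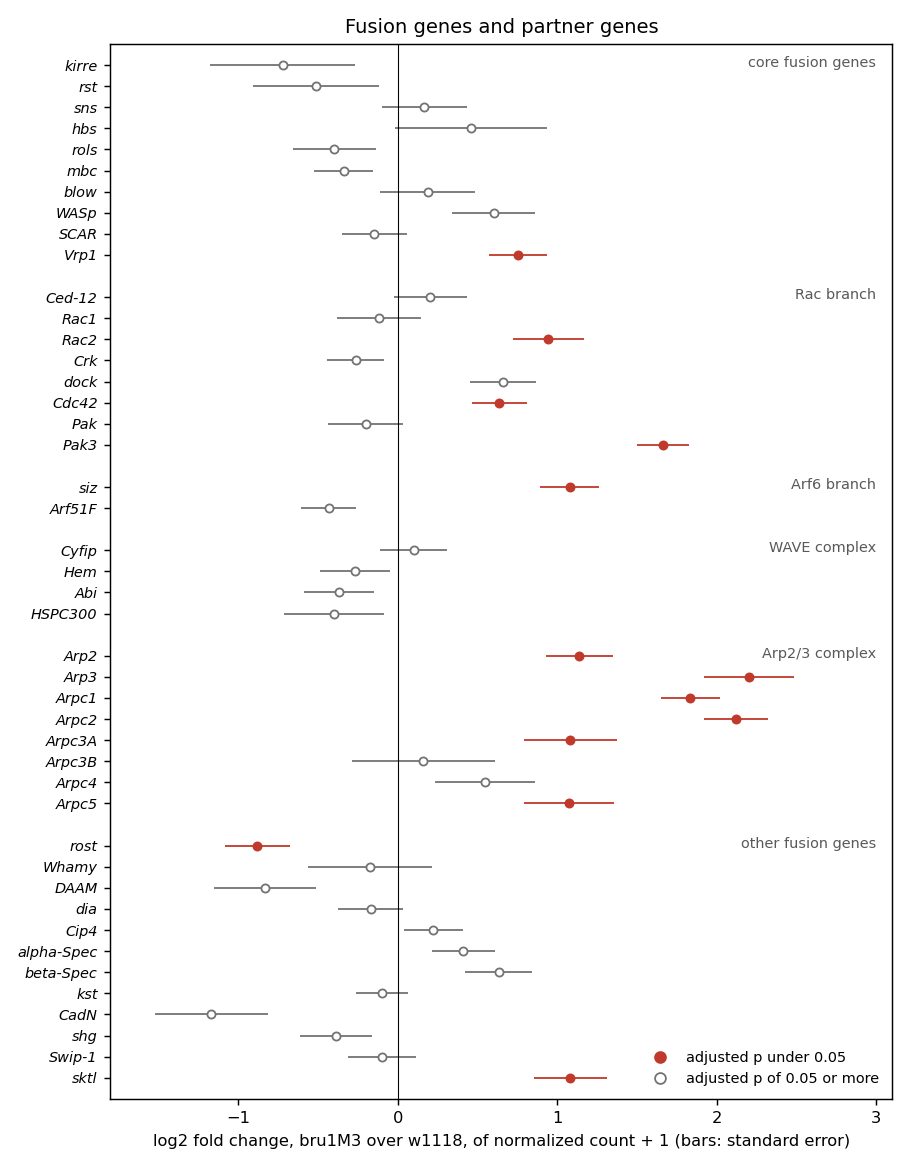
Log2 fold changes of normalized count + 1, bru1M3 over w1118 (x axis), for the 10 core fusion genes and 34 partner genes grouped by complex (y axis), with standard errors from limma. Filled symbols passed an adjusted p of 0.05: Vrp1 among the core genes and 12 partners, 6 of them Arp2/3 subunits at 1.07 to 2.20.

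Hemocytes also use the Arp2/3 complex and Rac2. Of 4 hemocyte markers tested, 3 were called lower in bru1M3, against 9.33% of all tested genes. The hemocyte list summed to 530 and 681 normalized counts in bru1M3, against 1368 and 1131 in w1118. Markers of tubular muscle, the other adult muscle type, summed to 60342 and 31239 in bru1M3, against 4820 and 9962 in w1118. Most of the bru1M3 sums was Act57B (53651 and 24634), which the study calls a cardiac actin. The list was not uniform: Act57B and Mlp84B were called higher, while Act79B was called lower, with 1174 and 2255 in bru1M3, against 3521 and 5031 in w1118. TpnC47D did not pass the test. The tendon cell gene sr had 468 and 462 in bru1M3, against 56.2 and 50.4 in w1118, while the other tendon marker, drm, did not pass the test. The part of these cells or fiber types in the Arp2/3, Rac2 and Vrp1 values was not tested.

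Genes of unfused myoblasts and of myogenic control were examined beside the fusion genes. Of 10 listed, 7 could be tested, and this list too was chosen with earlier results of these data known. lmd passed the filter on low values only through bru1M3, so its own test is not counted. Of the others, Mef2, vg and sd were called higher and ct lower, against 12.8% higher and 9.33% lower among all tested genes. N and zfh1 did not pass the test, with log2 fold changes of −0.47 and −0.57 (limma adjusted p = 0.284 and 0.122). Him was below the minimum, with 6.82 and 9.997 normalized counts in bru1M3, against 11.9 and 4.38 in w1118. lmd (lame duck), the transcription factor that specifies fusion-competent myoblasts in the embryo and acts ahead of sns there, had 51.9 and 63.8 normalized counts in bru1M3, against 3.40 and 6.57 in w1118. Both w1118 values are under the minimum of 10, so these levels are given without a fold change or test. Mef2, the activator of muscle genes, had 2318 and 2563 in bru1M3, against 1191 and 1274 in w1118 (log2 fold change 0.98, limma adjusted p = 0.00588). The flight muscle myoblast factor vg and its partner sd also passed, with 0.81 and 0.59 (adjusted p = 0.0294 and 0.0446). ct, which marks the other myoblast pool of the wing disc, fell by 1.22 on the log2 scale (adjusted p = 0.0271). Over the same libraries sns, the receptor downstream of lmd in the embryo, had the fold change of 0.17 given above. The calls of sd and ct were lost without any 1 of the 4 libraries, and that of vg without either bru1M3 library, without w1118 replicate 2 and with equal nuclear totals. That of sd was also lost with quantile normalization, equal medians, equal nuclear totals and DESeq2, and Mef2 kept its call without each library.

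The exon table gives 1 value of exon use per bin and genotype on a transformed scale, so differences between genotypes have no error and no test. Of the 77 bins of the fusion genes with a mean signal of at least 10, 19 (24.7%) had use values that differed by at least 1 between genotypes, 8 of them higher and 11 (14.3%) lower in bru1M3. Among all 44087 bins of that signal, 24.8% differed by as much in either direction and 12.8% were lower in bru1M3. The shares of the fusion genes were thus near those of all bins, and 2 bins at 3′ ends stood far from the rest.

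**Figure D3:**
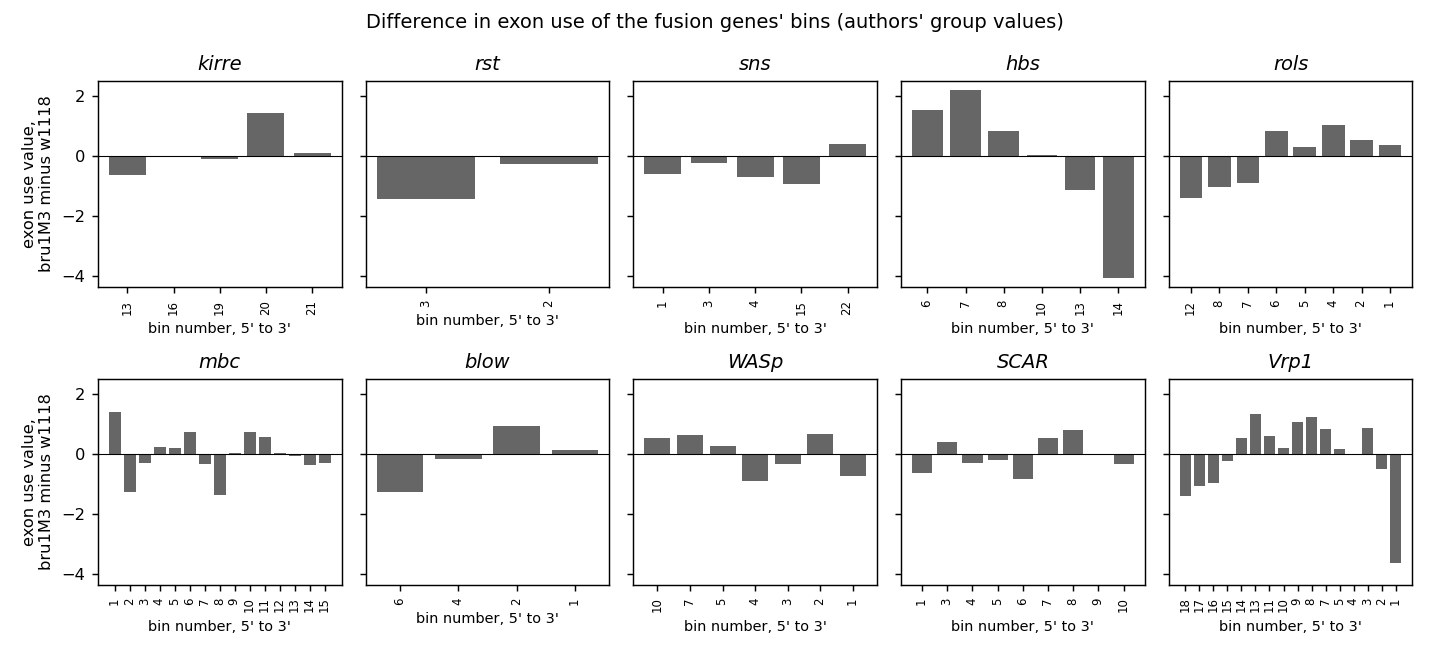
Difference in the authors' exon use value, bru1M3 minus w1118 (y axis), for each exon bin with a mean signal of at least 10 in the 10 fusion genes, ordered 5′ to 3′ along each gene (x axis, bin numbers). The lowest bars are the last bins of hbs (−4.04) and Vrp1 (−3.61), and the other bins lie between −1.42 and 2.19.

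The last bin of hbs had the largest difference. Bin 14 (2R, 15041379 to 15042134, plus strand, BDGP6) is the far end of the 3′ UTR and is annotated in 1 of 3 transcripts. Its use value was 2.90 in bru1M3, against 6.94 in w1118, a difference of −4.04, and 0.388% of all bins differed downward as far. The bin before it, bin 13, holds the stop codon and the proximal 3′ UTR of all 3 transcripts and had 4.14 in bru1M3, against 5.26 in w1118. The coding bins 6, 7 and 8 went the other way, with bin 7 at 4.45 in bru1M3, against 2.26 in w1118. The signal behind these bins was low, with means of 12.1 to 30.1 over the libraries, and hbs is the gene with as few as 27 reads in a library.

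Vrp1 had the second large difference, also in a terminal exon, and its signal was higher. Bin 1 (2R, 22106107 to 22107205, minus strand) is an alternative last exon of 3 of 12 transcripts, with 308 coding bases and 788 bases of 3′ UTR. Its use value was 6.09 in bru1M3, against 9.71 in w1118, a difference of −3.61 at a mean signal of 84.5, and 0.565% of all bins differed downward as far. Bin 2, the last exon of the other 9 transcripts, had 12.24 in bru1M3, against 12.74 in w1118, at a mean signal of 462. Vrp1 thus had a higher gene count and a lower use of this last exon in bru1M3.

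Within the coding region of Vrp1, bins 8 and 9, present in all 12 transcripts, had use differences of 1.22 and 1.06 (bru1M3 minus w1118). At the 5′ end, where upstream transcripts start, the noncoding bins 16, 17 and 18 had differences of −0.96, −1.06 and −1.40. Bin 13, a stretch of 14 bases of 5′ UTR, had the highest difference of the gene, 4.94 in bru1M3 against 3.62 in w1118, and its bases are also exonic in a gene on the other strand. Bins 14, 15 and 16 also share some bases with genes on the other strand, and whether the counting used strand is not given in the sources used here.

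**Figure D4:**
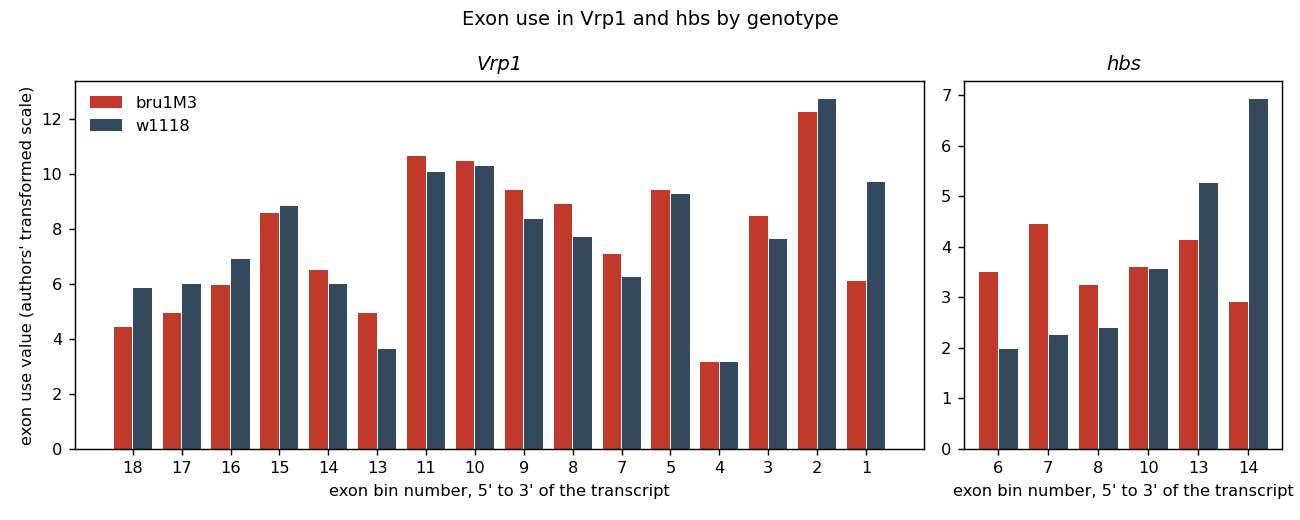
Exon use values on the authors' transformed scale (y axis) in bru1M3 (left bars) and w1118 (right bars) for the bins of Vrp1 and hbs with a mean signal of at least 10, 5′ to 3′ (x axis, bin numbers), 1 value per genotype without error. The last bin is lower in bru1M3 in both genes, with 6.09 against 9.71 in Vrp1 and 2.90 against 6.94 in hbs.

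The other genes had smaller differences, given here as bru1M3 minus w1118. In rols, the 5′ bins 12 and 8 and coding bin 7 had differences of −1.40, −1.04 and −0.89, and coding bin 4 had the highest (1.05), so the bins less used in bru1M3 lay together at the 5′ end. In mbc, the first exon (bin 1) had 1.38, the neighbouring bin 2 had −1.26, and coding bin 8 had −1.38. In blow, the 5′ UTR bin 6, a start used by 1 of 3 transcripts, had −1.25, and coding bin 2 had 0.94. In kirre, bin 20, which holds the stop codon, had 1.42, and the 5′ UTR bin 13 had −0.61.

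In rst, coding bin 3 had a difference of −1.42 and bin 2 one of −0.24, and these were its only bins over the minimum signal. The differences stayed under 1 in either direction in sns, WASp and SCAR. Their extremes were 0.41 in bin 22 and −0.93 in bin 15 of sns, 0.65 in bin 2 and −0.90 in bin 4 of WASp, and 0.81 in bin 8 and −0.84 in bin 6 of SCAR. Bin 6 of SCAR is an internal exon of 81 coding bases present in 2 of 6 transcripts. Parts of the exons of blow, WASp and SCAR are also exonic in genes on the other strand.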

How the data were processed

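Per the file headers and the methods of the study, poly-A selected, stranded paired-end libraries were mapped by the authors with STAR 2.7.3a to BDGP6.22 (annotation dmel_r6.32), processed with SAMtools 1.1 and counted with featureCounts of Subread 2.0.0. The signal values deposited per gene are counts divided by a DESeq2 1.32.0 size factor per library. Dividing each library by what 1 read is worth (0.682 and 0.769 in bru1M3, 1.70 and 1.10 in w1118) gave whole reads for 100% of values (tolerance 0.01). The exon table of the authors holds a mean signal per bin and 1 DEXSeq exon use score per genotype. The authors' own fold changes and p-values, per gene and per bin, were not used, nor were 4 per-library exon columns whose names match no sample.

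The genotypes were compared with limma 3.58.1 (eBayes with a trend, R 4.3.3) on the log2 of normalized counts + 1, with no block, over 9228 of 10626 genes (2 genes with a repeated row were counted once) with at least 10 in at least 2 libraries. Fold changes on this scale understate the changes of low genes. Benjamini-Hochberg adjusted p-values are over all tested genes. Intervals of counts are exact Poisson and cover counting error only. Alternatives were edgeR 4.0.16 and DESeq2 1.42.0 on recovered reads, other scalings, pseudocounts, filters and thresholds, the replicate block and leaving out each library. The scripts were tested on simulated data with known changes in 200 of 9228 genes, fewer than the genes called here. There limma recovered 22.8% of 114 genes with a log2 change of 1 in size, and 79.1% of 86 genes with 2. Of its 112 calls, 18 were unchanged genes. A gene that was not called here may still have changed. Replicates of a genotype differed by more than sampling noise. Exon annotation came from the Ensembl BDGP6 gene models, in which all 83 bins have edges at exon edges. Per kilobase values use summed exon length.

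All 10 fusion genes, bru1, called partner and myoblast genes, and otherwise the gene with the highest counts of a partner group were named, with cell type markers as context. Per fusion gene, the bins of largest rise and fall with neighbours that moved alike were named. The fusion genes and lists were chosen with earlier results of these data known. The genes sing, twi and E(spl)m6-BFM were not analysed here.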

Additional observations from a re-analysis of the deposited data

How the results depend on the processing

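Over 150 fold changes of the 10 fusion genes under the alternatives, 141 kept their direction and their side of the threshold, 6 (all Vrp1) kept the direction but lost the call, and 3 turned: sns to −0.0224 without bru1M3 replicate 2, hbs to −0.11 without w1118 replicate 2 and SCAR to 0.0223 without bru1M3 replicate 1. Over the single libraries left out, sns ranged from −0.0224 to 0.36, hbs from −0.11 to 1.03 and SCAR from −0.31 to 0.0223. The count of fusion genes called higher was 1 and became 0 with quantile normalization, with equal nuclear totals, at a threshold of 0.01, and without any 1 library (0 to 0). With equal nuclear totals the median of all genes shifted to −0.13, and Vrp1 lay 0.75 above that median, against 0.76 in the scaling as deposited. This scaling multiplies each library by a constant, which moves Vrp1 and the median nearly alike, so these distances had to be close. With quantile normalization the median was −0.06, and Vrp1 lay 0.66 above it.

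Partners called higher numbered 11, with 6 at a threshold of 0.01 and 4 to 8 with 1 library left out. Partners called lower numbered 1, with 3 under quantile normalization (rost, CadN and Arf51F), 2 (rost and CadN) under equal nuclear totals, pseudocount 10, minimum value 50, robust empirical Bayes, DESeq2 and the replicate block, 0 at a threshold of 0.01, and 0 to 1 with 1 library left out. All genes called numbered 2046, with 891 at a threshold of 0.01 and 601 to 1503 with 1 library left out. Exon bins differing by at least 1 numbered 8 higher and 11 lower, with 4 and 3 of 46 bins at a minimum mean signal of 50. At that minimum the shares were 8.7% higher and 6.52% lower, against 10.3% and 11.1% of all bins. Apart from thresholds and smaller gene or sample sets, the cause was not tested.

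Same-numbered replicates did not deviate together (correlation 0.03 over genes, 2 pairs). With 2 pairs this cannot decide whether libraries of the same number were prepared together. With the replicate block 2294 genes were called, Vrp1 among them. The call of sd was lost with the block. Depth limits the receptors kirre, rst and hbs, which rest on 27 to 103 reads per library.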
